A study of Mus musculus with 6 samples.

Results

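Transcripts of 9 genes that carry interferon signals from the cell surface to the nucleus were followed in mesenchymal stromal cells (MSCs). They encode receptor chains (Ifnar1, Ifnar2, Ifngr1), receptor-bound kinases (Jak1, Tyk2), a signal transducer (Stat2) and interferon regulatory factors (Irf1, Irf7, Irf9). The members were chosen by symbol from the 23420 genes of the count table, and all 9 were among the 11974 genes that passed the filter on low counts and were tested. The cells came from the bone marrow of female C57BL/6 mice of 6 to 8 weeks and had been expanded in culture before retroviral transduction. The 3 libraries labelled Ctl MSC came from MSCs transduced with the empty AP2 construct, whose marker is eGFP, and the 3 labelled MSC-TPr from MSCs given the same construct with the genes for the thymoproteasome subunits β1i (Psmb9), β2i (Psmb10) and β5t (Psmb11). All 6 libraries hold polyA RNA of whole cultures, so fewer cells of a type and less RNA per cell cannot be told apart. The sources used here name no interferon treatment for these libraries and do not say whether the libraries of a group came from separate cultures, so p-values measure only the spread between these libraries, which may be technical.

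Type I interferons bind a receptor made of Ifnar1 and Ifnar2, whose cytoplasmic tails hold Tyk2 and Jak1, whereas interferon-gamma binds Ifngr1 and Ifngr2, which work through Jak1 and Jak2. Activated Stat2 joins Irf9 in a complex called ISGF3, which binds a DNA motif named ISRE in the promoters of interferon-induced genes, while the interferon-gamma pathway acts through a motif named GAS. Irf7 and Irf9 are themselves induced by interferon, and Irf7 drives further interferon production. Irf1 is a classical target of interferon-gamma, and MSCs are known to raise antigen presentation when given that cytokine.

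The upstream sequence of 4 members is shown because 3 of them (Stat2, Irf7 and Irf9) differed most between the library labels and the other (Irf1) holds the motif of the gamma pathway. Ifnar1 and Ifnar2 hold that motif too, and their sequences are not shown. Each sequence gives the 250 bases before the RefSeq start of the gene on GRCm38.p6, which is the mm10 build of the deposited files, read 5′ to 3′ on the strand of the gene. Capitals mark matches to the ISRE core (TTTC, any 2 bases, TTTC) or to GAS, TTCNNNGAA, and both strands were searched. The stretches are chr10:128270248-128270497 (plus strand) for Stat2, chr11:53769764-53770013 (plus strand, the upstream of its 2 listed starts) for Irf1, chr7:141266425-141266674 (minus strand) for Irf7 and chr14:55603735-55603984 (plus strand, the upstream of its 2 listed starts) for Irf9.
Stat2: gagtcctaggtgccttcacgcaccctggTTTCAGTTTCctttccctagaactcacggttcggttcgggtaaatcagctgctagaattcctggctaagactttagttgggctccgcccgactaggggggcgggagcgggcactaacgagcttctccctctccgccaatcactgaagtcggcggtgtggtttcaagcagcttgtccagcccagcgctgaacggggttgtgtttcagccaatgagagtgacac
Irf1: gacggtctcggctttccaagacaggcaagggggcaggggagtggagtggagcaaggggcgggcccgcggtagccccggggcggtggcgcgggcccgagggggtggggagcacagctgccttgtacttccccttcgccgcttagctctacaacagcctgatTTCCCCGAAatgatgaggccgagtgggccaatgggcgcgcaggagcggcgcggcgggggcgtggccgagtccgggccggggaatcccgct
Irf7: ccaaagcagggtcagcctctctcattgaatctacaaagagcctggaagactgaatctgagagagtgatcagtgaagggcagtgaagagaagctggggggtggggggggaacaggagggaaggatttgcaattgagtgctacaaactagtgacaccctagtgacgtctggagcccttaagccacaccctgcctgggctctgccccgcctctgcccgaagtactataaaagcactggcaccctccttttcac
Irf9: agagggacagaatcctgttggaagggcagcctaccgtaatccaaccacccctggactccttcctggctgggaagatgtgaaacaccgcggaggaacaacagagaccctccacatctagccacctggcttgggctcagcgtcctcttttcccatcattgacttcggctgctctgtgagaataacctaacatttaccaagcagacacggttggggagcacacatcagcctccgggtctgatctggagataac

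Among the 9 genes, Stat2 alone held an ISRE core in a window from 250 bases before to 50 after a start, at −222 to −213, against 3.99% of the 27025 genes with such a window. GAS was present in 3 of the 9, in Irf1 at −90 to −82, in Ifnar2 at −214 to −206 and in Ifnar1 across the start, against 9.55% of all genes. Neither motif was in the windows of Irf7, Irf9, Ifngr1, Jak1 or Tyk2, which says only that these letters are not in these windows. For the 26 of 32 listed interferon-induced genes with a window, 17 held the ISRE core and 7 held GAS. The 2 motifs can overlap, and a match of letters is not evidence of binding.

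The libraries held 16158756 to 22158887 reads on genes, and 3 reads, taken as the smallest detectable amount, correspond to 0.139 to 0.181 CPM (the read count scaled by the TMM-normalised library size), a limit that covers counting error only. Over all 6 libraries the transduced genes did not separate the labels. Psmb10 ranged over 8.38 to 27.8 CPM (Ctl MSC) and 8.97 to 17.3 CPM (MSC-TPr), Psmb9 over 0.801 to 3.38 and 0.554 to 1.24 CPM, and Psmb11 had at most 0.355 CPM in any library. Without both libraries numbered 1, Psmb10 was called higher (8.81 and 8.38 CPM against 17.3 and 15.2 CPM, log2 fold change 0.92, adjusted p from edgeR 0.0055), and Psmb9 had 0.59 on the log2 scale (adjusted p from edgeR 0.164). Each direction given here is a direction between libraries labelled Ctl MSC and libraries labelled MSC-TPr. The first principal component, with 58.5% of the variance, placed Ctl MSC 1 (−40.9) with MSC-TPr 2 and 3 (−50.3 and −49.4) and MSC-TPr 1 (40.5) with Ctl MSC 2 and 3 (50.8 and 49.2). The second, with 28.3%, ordered the libraries by label, with scores of −48.9 to −19.6 (Ctl MSC) and 15.6 to 49.1 (MSC-TPr). Cell division genes ran as the first component did, since the summed level of 8 of them reached 1329 CPM for Ctl MSC 1 and 1187 and 1252 CPM for MSC-TPr 2 and 3, but 127 to 133 CPM in the other 3 libraries. The results of the 9 genes are given over all 6 libraries and again without both libraries numbered 1. In that second fit edgeR called all 8 cell division genes higher in MSC-TPr, so label and cell division cannot be told apart there. Of the stromal markers, Cd44, Nt5e, Eng, Ly6a, Pdgfra and Pdgfrb were detected in every library, whereas Thy1, which encodes CD90, had 1 read in all 6 together. The 8 haematopoietic markers summed to 3.02 to 10.2 CPM (Ctl MSC) and 1.95 to 14.2 CPM (MSC-TPr), led by Cd68 in every library but MSC-TPr 3, while Ptprc, Itgam and Tyrobp had 2 reads each over all libraries and Adgre1 had 0. The 4 endothelial markers summed to 0.785 to 3.09 and 1.62 to 3.32 CPM. Without both libraries numbered 1, edgeR called Nt5e and Cd68 lower and Cd44 and Csf1r higher, and the part of these cell type markers in the results was not tested.

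The ISGF3 genes Stat2 and Irf9 and the amplifying factor Irf7 were lower across all libraries labelled MSC-TPr than across all labelled Ctl MSC, by 7.08-fold for Irf7, 2.96-fold for Stat2 and 2.45-fold for Irf9 between group means. The receptor chains Ifnar1 and Ifngr1 were also lower without overlap, by 1.42-fold and 1.26-fold. In Ifnar2, Jak1, Tyk2 and Irf1 the groups overlapped. In total 5 of the 9 genes were lower without overlap and 0 were higher without overlap, where 12.1% and 10.6% of all genes tested were. None of the 9 reached the call rule over all 6 libraries, which asks for an adjusted p under 0.05 in edgeR's quasi-likelihood test and a difference of 0.5 or more on the log2 scale, where 0.426% of all genes did (0.401% lower and 0.0251% higher). At an unadjusted p under 0.05, 4 of the 9 were lower (Irf7, Stat2, Irf9 and Ifnar1) and 0 were higher, where 8.23% of all genes tested were lower. DESeq2 called Irf7, Stat2 and Irf9 lower over the same libraries, 3 of 9 where 3.39% of all genes were called lower, and none of the 9 higher, where 1.89% of all genes were. Without both libraries numbered 1, edgeR called those 3 and Ifnar1 lower, 4 of 9 where 19.4% of all genes were called lower, and none of the 9 higher, where 20.6% of all genes were. Label and cell division cannot be told apart in that fit. The median log2 fold change of the 9 genes was −0.50 over all 6 libraries and −0.50 without both libraries numbered 1, where all genes tested had medians of 0.01 and −0.0016.

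**Figure D1:**
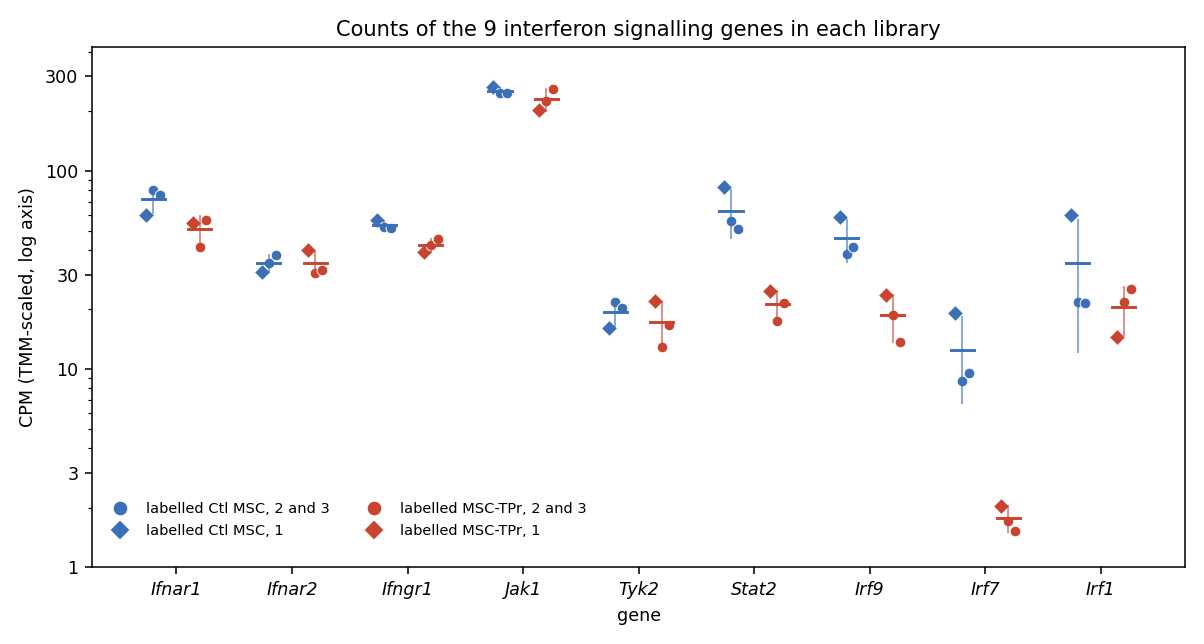
Points give the CPM of each gene in each library on a log axis, blue for libraries labelled Ctl MSC and red for MSC-TPr, with diamonds for the libraries numbered 1, bars for the mean and thin lines for the SD (n = 3). For Irf7 all red points lie at or under 2.05 CPM and all blue points at or above 8.76 CPM, while for Irf1 the blue diamond at 60.1 CPM stands above every other point of that gene.

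Irf7, on chromosome 7 of mm10 from 141262706 to 141266481 on the minus strand, showed the largest difference of the 9 genes. The libraries labelled Ctl MSC 1, 2 and 3 held 19.2, 8.76 and 9.60 CPM (317, 164 and 174 reads), and those labelled MSC-TPr 1, 2 and 3 held 2.05, 1.72 and 1.53 CPM (37, 29 and 33 reads). The lowest Ctl MSC library lay 4.28-fold above the highest MSC-TPr library, and Ctl MSC 1 was 2.09 times the mean of Ctl MSC 2 and 3. The group means were 12.5 ± 5.77 and 1.76 ± 0.262 CPM (SD, n = 3 each), or on the log2 scale a difference of −2.82 (SE 0.386). Its adjusted p of 0.0504 (edgeR) fell just short of the threshold, and its unadjusted p ranked 52 among the 11974 genes tested. Only 0.869% of the genes tested had a lower log2 fold change. Without Ctl MSC 1 the adjusted p was 0.0294 with a log2 fold change of −2.37 (edgeR), and without both libraries numbered 1 it was 0.00054 with −2.50. Leaving out any of the other 5 libraries gave an adjusted p from 0.0920 to 0.266 (edgeR). DESeq2 gave an adjusted p of 1.5e-08 over all 6. An overlap of 45 exon bases with Phrf1 on the opposite strand leaves a small part of its count uncertain, since the strand setting of the counting is not stated.

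Stat2, on chromosome 10 from 128270559 to 128292849 on the plus strand, is the transducer specific to type I and type III interferon signals. It had 82.8, 55.8 and 50.7 CPM (Ctl MSC 1, 2 and 3) against 24.7, 17.5 and 21.6 CPM (MSC-TPr 1, 2 and 3). The ranges stood 2.05-fold apart at their nearest, again with Ctl MSC 1 highest. The means were 63.1 ± 17.3 and 21.3 ± 3.63 CPM (SD, n = 3 each), or on the log2 scale a difference of −1.57 (SE 0.249, adjusted p from edgeR 0.0731). The adjusted p was 2.0e-05 by DESeq2 and 0.0011 without both libraries numbered 1 (edgeR), where the log2 fold change was −1.44.

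Irf9, on chromosome 14 from 55603571 to 55610030 on the plus strand, encodes the DNA-binding part of ISGF3. It had 58.4, 37.9 and 41.3 CPM (Ctl MSC 1, 2 and 3) against 23.6, 18.8 and 13.7 CPM (MSC-TPr 1, 2 and 3). Ctl MSC 1 was the highest library and MSC-TPr 3 the lowest, with a gap of 1.61-fold between the nearest libraries of the groups. The means were 45.8 ± 11.0 and 18.7 ± 4.93 CPM (SD, n = 3 each), or on the log2 scale a difference of −1.29 (SE 0.273, adjusted p from edgeR 0.121). DESeq2 gave an adjusted p of 0.0030, and the fit without both libraries numbered 1 gave 0.0028 (edgeR) with a log2 fold change of −1.28. Of its 5386 exon bases, 123 are shared with Rnf31, which is read in the same direction, and the count is uncertain to that extent.

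Irf1, on chromosome 11 from 53770014 to 53778374 on the plus strand, did not follow the labels. It had 60.1, 21.7 and 21.5 CPM (Ctl MSC 1, 2 and 3) against 14.5, 21.7 and 25.4 CPM (MSC-TPr 1, 2 and 3). Ctl MSC 1 was 2.78 times the mean of Ctl MSC 2 and 3, and without it the ranges overlapped fully. Irf1 overlaps Gm17334 on the opposite strand over 135 of its 3976 exon bases, which leaves a small part of its count uncertain. The means were 34.5 ± 22.2 and 20.5 ± 5.58 CPM (SD, n = 3 each), or on the log2 scale a difference of −0.75 (SE 0.465, adjusted p from edgeR 0.503) that shrank to −0.07 without Ctl MSC 1 and turned to 0.13 without both libraries numbered 1 (adjusted p from edgeR 0.885 and 0.472).

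**Figure D2:**
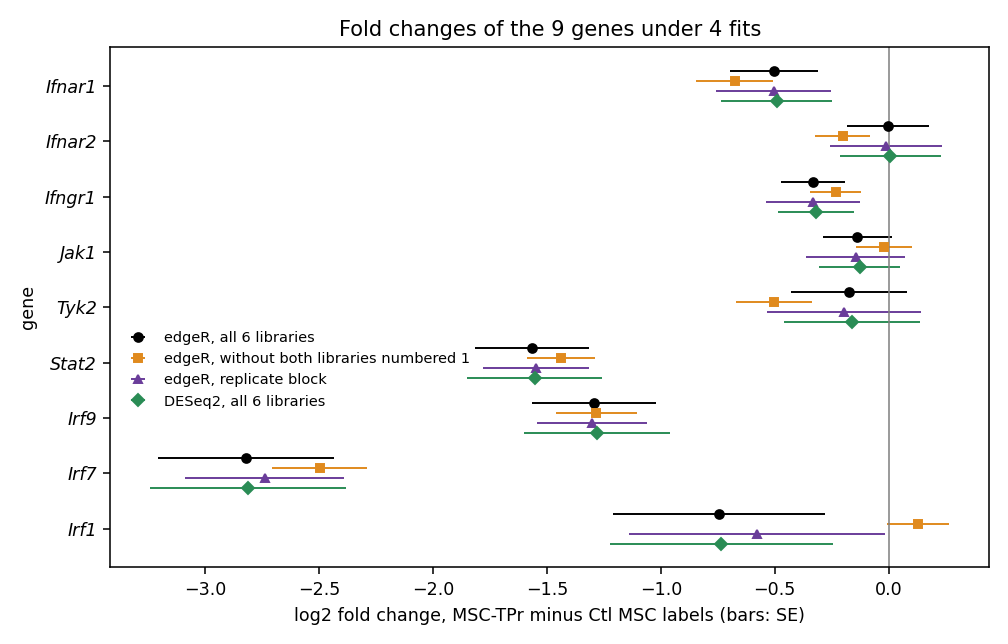
The log2 fold change of each gene (MSC-TPr minus Ctl MSC labels, x axis) is drawn with its SE under 4 fits, in black for edgeR over all 6 libraries, orange without both libraries numbered 1, violet with the replicate number as a block and green for DESeq2. Irf7, Stat2 and Irf9 stay below −1 in all 4 fits, whereas Irf1 moves from −0.75 to 0.13 when both libraries numbered 1 are left out.

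The receptor genes showed smaller differences. Ifnar1, the chain that recruits Tyk2, lies on chromosome 16 from 91485238 to 91507441 and had 59.8, 80.4 and 76.0 CPM (Ctl MSC 1, 2 and 3) against 54.9, 41.3 and 56.3 CPM (MSC-TPr 1, 2 and 3). The groups did not overlap, but the nearest libraries (Ctl MSC 1 and MSC-TPr 3) were only 1.06-fold apart. Its log2 fold change was −0.50 (SE 0.194, adjusted p from edgeR 0.297), and −0.68 without both libraries numbered 1 (SE 0.169, adjusted p from edgeR 0.0208). Ifnar2, the partner chain that holds Jak1, lies on the same chromosome from 91372783 to 91405589 and had 30.8, 34.2 and 37.8 CPM against 40.1, 30.6 and 31.8 CPM. The highest and the lowest library were both labelled MSC-TPr, and the log2 fold change was −0.0040 (SE 0.179, adjusted p from edgeR 0.994). Without both libraries numbered 1 it was −0.20 (adjusted p from edgeR 0.216). The values of Ifnar2 were lower in Ctl MSC 1 and MSC-TPr 2 and 3, where the cell division genes were high. The part of cell division in these values was not tested. Ifnar2 shares 315 of its 3329 exon bases with Gm21970, which is read in the same direction, and the count is uncertain to that extent. Ifngr1, the ligand-binding chain of the interferon-gamma receptor, lies on chromosome 10 from 19591949 to 19610229 and had 56.2, 51.9 and 51.5 CPM against 39.1, 42.3 and 45.4 CPM. The ranges did not overlap, with 1.13-fold between the nearest libraries, and the log2 fold change was −0.33 (SE 0.140, adjusted p from edgeR 0.334). Without both libraries numbered 1 it was −0.23 (adjusted p from edgeR 0.140).

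The kinases overlapped between the labels. Jak1, which serves both receptor types, lies on chromosome 4 from 101152367 to 101265282 and had 265, 246 and 247 CPM (Ctl MSC 1, 2 and 3) against 203, 226 and 260 CPM (MSC-TPr 1, 2 and 3). The MSC-TPr libraries spread more widely and the log2 fold change was −0.14 (SE 0.151, adjusted p from edgeR 0.717). Without both libraries numbered 1 it was −0.020 (adjusted p from edgeR 0.905). Tyk2, the kinase on Ifnar1, lies on chromosome 9 from 21104068 to 21131243 and had 16.1, 21.8 and 20.2 CPM against 22.0, 13.0 and 16.6 CPM. Its libraries were low where the cell division genes were high (Ctl MSC 1 and MSC-TPr 2 and 3), and the part of cell division in its values was not tested. The log2 fold change was −0.17 (SE 0.255, adjusted p from edgeR 0.802) and −0.50 without both libraries numbered 1 (adjusted p from edgeR 0.0503). Tyk2 overlaps 1700084C06Rik on the opposite strand over 554 of its 6865 exon bases.

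Levels were compared between genes as CPM per kilobase of exon, averaged over the 3 libraries of a label. In the libraries labelled Ctl MSC, Jak1 was highest at 35.0 ± 1.46, followed by Ifngr1 at 18.7 ± 0.933 and Ifnar1 at 12.1 ± 1.82 (SD, n = 3). The next places were held by Stat2 (10.6 ± 2.92), Ifnar2 (10.3 ± 1.05), Irf1 (8.67 ± 5.59) and Irf9 (8.51 ± 2.04), and from Ifnar1 to Irf9 each neighbour in this order overlapped with the next in the range of its libraries. Irf7 (3.31 ± 1.53) and Tyk2 (2.82 ± 0.434) came last and overlapped with each other but not with Irf9. In the libraries labelled MSC-TPr, Jak1 (31.8 ± 3.93) and Ifngr1 (14.9 ± 1.10) again led without overlap, followed by Ifnar2 (10.3 ± 1.55) and Ifnar1 (8.55 ± 1.39), which overlapped. Irf1 (5.16 ± 1.40), Stat2 (3.59 ± 0.613), Irf9 (3.47 ± 0.915) and Tyk2 (2.51 ± 0.666) formed a chain of overlapping neighbours, and Irf7 at 0.467 ± 0.0695 lay below every other gene in the range of its libraries. The receptor chains and Jak1 were thus above the factors Stat2, Irf9 and Irf7 in the libraries labelled MSC-TPr, whereas Stat2 overlapped with both type I receptor chains in those labelled Ctl MSC.

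**Figure D3:**
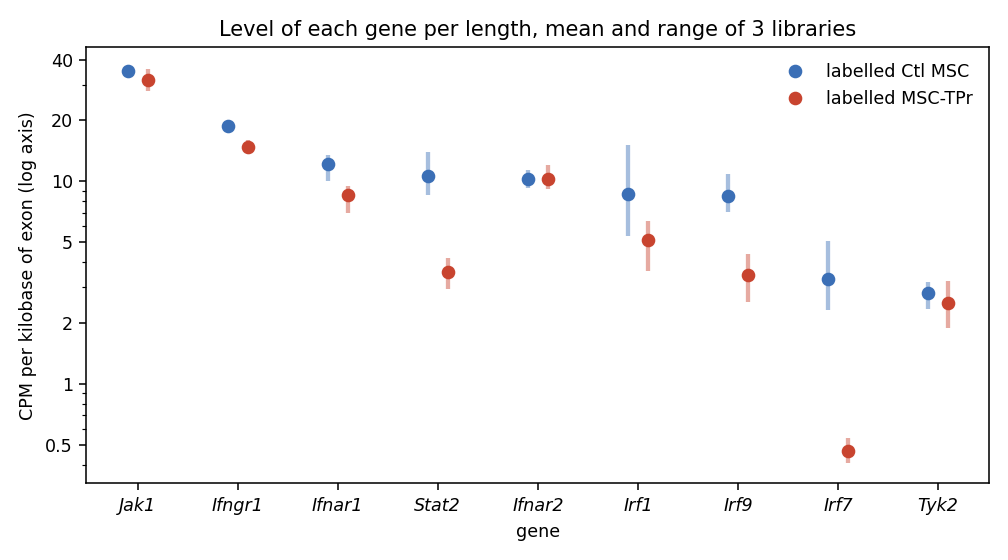
Points are mean levels in CPM per kilobase of exon on a log axis, with bars from the lowest to the highest of 3 libraries, blue for libraries labelled Ctl MSC and red for MSC-TPr. Genes are ordered by the Ctl MSC mean, and the red points of Stat2 (3.59), Irf9 (3.47) and Irf7 (0.467) drop furthest below their blue bars on this axis. Those of Ifngr1, Ifnar1, Irf1 and Jak1 also lie below their bars, while those of Ifnar2 and Tyk2 lie inside.

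Other genes of the pathway, and receptor chains of related cytokines, were read from lists written from general knowledge. The lists were written with earlier results of these data known. Counts of other pathway genes cover all of these lists. The median log2 fold change of all genes tested was 0.01. Of 8 other receptor chains, 6 were tested and 0 were called over all 6 libraries with edgeR, while 1 was lower (Il6st) and 1 higher (Lifr) at an unadjusted p under 0.05 and DESeq2 called 1, Lifr, higher. Lifr, the receptor of leukaemia inhibitory factor, averaged 19.2 ± 4.23 CPM (Ctl MSC) against 38.9 ± 11.9 CPM (MSC-TPr, SD, n = 3 each, adjusted p from edgeR 0.187). Il6st, the shared signalling chain of the interleukin-6 family, had 334 ± 46.0 and 222 ± 63.4 CPM (adjusted p from edgeR 0.316), and Il6ra and Osmr had log2 fold changes of 0.44 and 0.26. The median of the list was 0.24. Of its tested genes only Ifngr2 (0.22) and Il10rb (0.16) are interferon receptor chains, both with overlapping groups. The rest tested are chains of the interleukin-6 family, so the counts and the median do not describe interferon receptors alone. Without both libraries numbered 1, edgeR called 2 of the 6 higher, Lifr (1.34) and Osmr (0.79), where 20.6% of all genes were.

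For 7 other JAK kinases and STAT factors, 6 were tested and 0 were called by edgeR or DESeq2 over all 6 libraries, and none had an unadjusted p under 0.05 in edgeR. The groups overlapped in all 6, and the median log2 fold change was −0.19. Jak3, a kinase of lymphoid cytokine receptors, had 0.52 on the log2 scale, while Stat5a, Stat3 and Stat5b, which carry signals of other cytokines and growth factors, had −0.37, −0.27 and −0.26. In the fit without both libraries numbered 1, Stat3 stood at 0.15 and edgeR called 1 of the 6 lower, Jak2, the kinase on Ifngr2 (log2 fold change −0.70, adjusted p from edgeR 0.0068), where 19.4% of all genes were. Of 9 other IRF factors and IRF2-binding proteins, 6 were tested and edgeR called 0, none of them at an unadjusted p under 0.05, while DESeq2 called 1, Irf4, higher at few reads. Irf2, which competes with Irf1 for its sites, and Irf3, the factor that starts interferon production, had log2 fold changes of 0.31 and 0.26, and in both every MSC-TPr library lay above every Ctl MSC library. Irf2bpl and Irf2bp2 had 0.59 and −0.44 with overlapping groups. When both libraries numbered 1 were left out, edgeR called 1 of the 6 lower, Irf2bp2 (−0.89, adjusted p from edgeR 0.0024), and 1 higher, Irf5 (0.92, adjusted p from edgeR 0.0471), and it also called Irf4, too low for the fit over all 6, higher.

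Feedback regulators restrain the pathway after it has fired. The list read here is wider, since it also holds other inhibitors, such as Pias4 and Ptpn1, and Nmi, which is not an inhibitor. Of 15 listed, 14 were tested, and 1, Usp18, was called lower and 0 higher over all 6 libraries (edgeR), while DESeq2 called Usp18 and Isg15 lower, and the same 2 were lower and Socs2 higher at an unadjusted p under 0.05. Usp18 binds Ifnar2 and blocks its kinase. It had 46.3, 22.8 and 25.6 CPM (Ctl MSC 1, 2 and 3) against 4.37, 2.37 and 1.72 CPM (MSC-TPr 1, 2 and 3), with no overlap and a log2 fold change of −3.49 (SE 0.470, adjusted p from edgeR 0.0485). Isg15, a ubiquitin-like protein that stabilises Usp18 in human cells and was named after its values were seen, had a log2 fold change of −3.41 (SE 0.533, adjusted p from edgeR 0.0722). The median of the list was −0.21. With both libraries numbered 1 left out, edgeR called 3 lower (Usp18, Isg15 and Pias4) and 2 higher (Socs2 and Ptpn1), where 19.4% and 20.6% of all genes were. No interferon ligand passed the filter. Of 14 listed, 10 had 0 reads in all 6 libraries, which is under the floor of 0.139 to 0.181 CPM in each, and the others (Ifnb1, Ifne, Ifnz and Ifng) had at most 6 reads in any library.

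The known interferon-induced genes were lower as a list. Since the list was written with earlier results of these data known, this describes the libraries and is no independent support. Of 32 listed, 31 were tested, and all 31 had a log2 fold change below 0, the lowest −4.32, the highest −0.42 and the median −2.55. Over all 6 libraries, edgeR called 3 of the 31 lower, where 0.401% of all genes tested were called lower, and 27 were lower at an unadjusted p under 0.05. DESeq2 called 24 of the 32 listed lower, among them Mx1, which was too low for the edgeR fit, where 3.39% of all genes were. Without both libraries numbered 1, edgeR called 25 of the 31 lower, where 19.4% of all genes were, and the median of the list was −1.63. The shared direction did not hold in full there. Psmb8 turned to 0.60, while Tap1, Ifih1, Eif2ak2 and Zbp1 lay at −0.034 to −0.19. The groups stood apart without overlap in 26 of the 31, all lower, where 12.1% of all genes were lower without overlap. The exceptions were Psmb8, Tap1, Ifih1, Eif2ak2 and Zbp1, named after their values were seen. The genes called were Ifi44, an interferon-induced cytoplasmic protein, with 69.2, 41.0 and 43.2 CPM against 4.04, 4.02 and 2.37 CPM (log2 fold change −3.88, SE 0.343, adjusted p from edgeR 0.0142), Oasl2, of the oligoadenylate synthetase family, with −3.59 (SE 0.406, adjusted p from edgeR 0.0307), and Rsad2, which encodes the antiviral enzyme viperin, with −2.38 (SE 0.292, adjusted p from edgeR 0.0352). The summed level of the 32 genes was 1840, 828 and 828 CPM (Ctl MSC 1, 2 and 3) against 349, 333 and 398 CPM (MSC-TPr 1, 2 and 3). Ctl MSC 1 was thus the highest library for this sum as it was for Irf7, Stat2, Irf9 and Irf1. It was also highest, by smaller margins, for Ifngr1 and Jak1. The number of pathway genes outside the 9 that edgeR called changed with the libraries used, and so did the number over all genes. For the pathway genes it was 4 over all 6, 10 without Ctl MSC 1, 2 without MSC-TPr 1 and 0 without any one of the other 4. Over all genes, those called lower numbered 48, 105 and 33 in the same order, and 0 or 1 without any one of the other 4. The change is therefore not read as a result about the pathway genes.

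**Figure D4:**
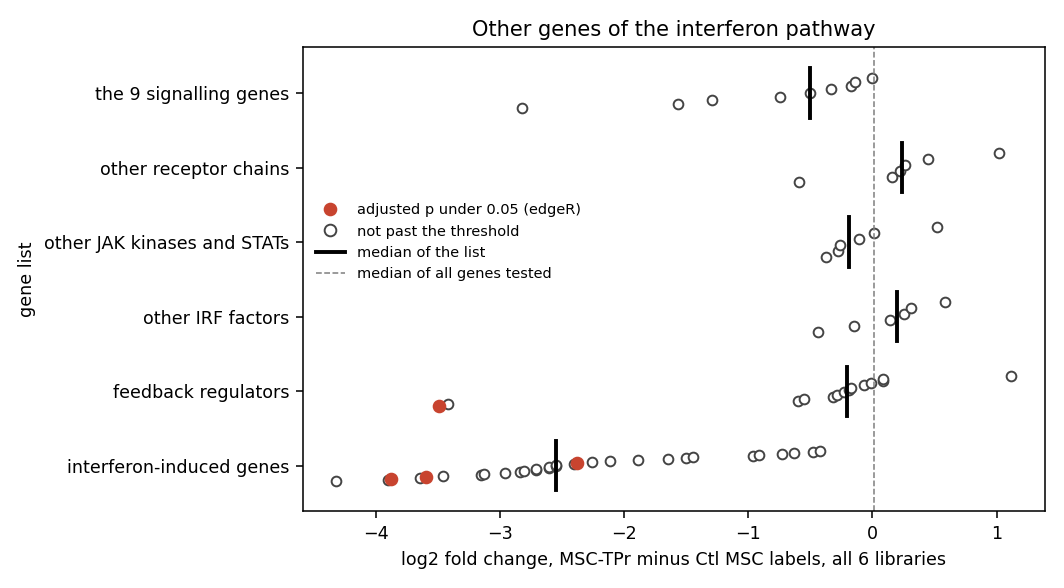
Each circle is a tested gene placed by its log2 fold change over all 6 libraries (x axis), in rows by list, filled red where edgeR's adjusted p was under 0.05, with a black bar at the median of the list and a dashed line at the median of all genes tested (0.01). The interferon-induced genes have a median of −2.55, while the medians of the other receptor chains (0.24) and other IRF factors (0.20) lie to the right of the dashed line. The other receptor chains are mostly of the interleukin-6 family.

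The genes whose pattern over the 6 libraries was most like that of the 3 members with the widest range (Irf7, Stat2 and Irf9) were found by the root mean square difference of log2 CPM after centring each gene on its mean. Nearest to Irf7 among 11973 other genes were Dhx58, Ifi203 and Apol9a, with differences of 0.166 to 0.170. Dhx58 had 17.6, 7.69 and 7.01 CPM (Ctl MSC 1, 2 and 3) against 2.16, 1.36 and 1.21 CPM (MSC-TPr 1, 2 and 3). Nearest to Stat2 were Gstm4, Trim12a and Cdo1 (0.115 to 0.117), which reached at most 5.62 CPM in any library, and nearest to Irf9 were Zfp422, Sepp1 and Ifi27l1 (0.162 to 0.166). Among the 9 genes themselves the closest pair was Ifngr1 and Jak1 (0.102), and Stat2 and Irf9 differed by 0.271. These values describe 6 libraries that also differ in cell division.

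**Figure D5:**
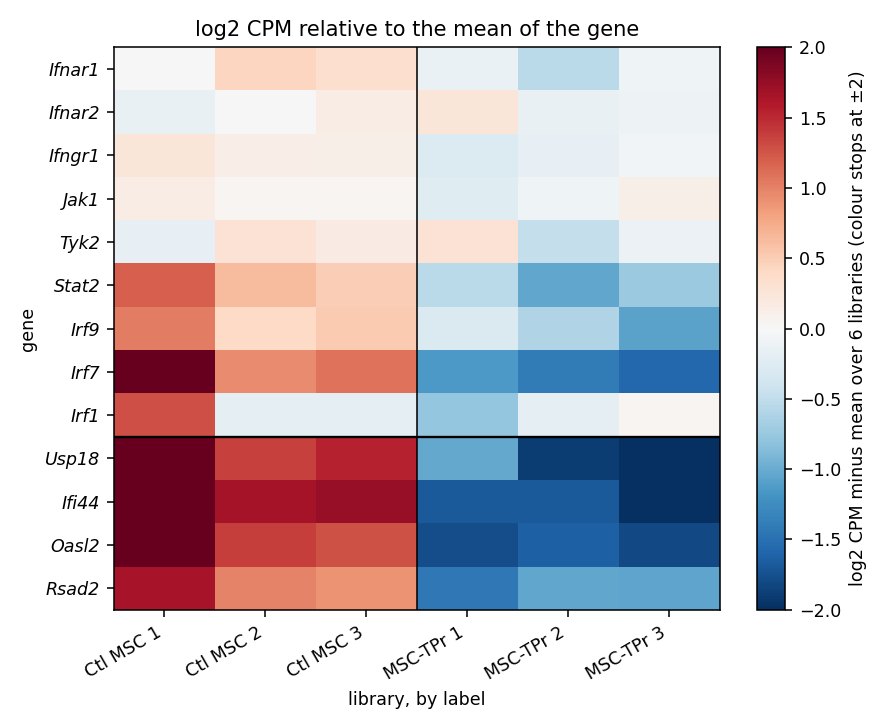
Colours give log2 CPM minus the mean of the gene over 6 libraries (rows are genes, columns libraries by label, red high and blue low, with colours stopping at ±2), for the 9 genes above the line and, below it, the other pathway genes called by edgeR. Stat2, Irf9, Irf7 and the genes under the line are red in all Ctl MSC columns and blue in all MSC-TPr columns, deepest red in Ctl MSC 1, while Ifnar2, Jak1, Tyk2 and Irf1 hold both colours within a label.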

How the data were processed

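The 6 RNA-seq libraries were grouped by sample title, 3 as Ctl MSC and 3 as MSC-TPr. Per the labels and the study's methods, the authors trimmed the reads with Trimmomatic 0.35, aligned them to mm10 with TopHat2 2.1.0 and deposited raw counts per gene from Htseq-count. Its strand setting and annotation are not given in the sources used here. The 5 tally rows of Htseq-count were left out (13.8% to 20.8% of the reads listed), and 16158756 to 22158887 reads per library remained on genes.

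The main test was the quasi-likelihood test of edgeR 4.0.16 (R 4.3.3) after TMM scaling and filterByExpr, with no term but the label, and p-values were adjusted by Benjamini-Hochberg over 11974 genes. Calls needed an adjusted p under 0.05 and a difference of 0.5 or more on the log2 scale. The SE is the size of the log2 fold change divided by the square root of F. DESeq2 1.42.0 (Wald test) was an alternative, beside other scalings and filters, leaving out libraries and the replicate number as a block. Both tools were run on simulated counts with 200 genes changed 4-fold. That simulation gave all genes the same dispersion and held no cell division difference between libraries. It therefore checks that the code runs as meant and not the calls made here. Nearest patterns used log2 CPM with a prior count of 2. Gene positions and exon lengths come from GENCODE M21 (mm10) and promoters from RefSeq (GRCm38.p6), matched by symbol for all 9 genes. Of the other listed genes, Ifit3b and Adgre1 were matched by an older symbol.

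The members and lists were chosen with earlier results of these data known. Genes named are the 9 members, the transduced genes, from each list those called or else up to 4 with the largest log2 fold changes whose mean log2 CPM reached 1, and the 3 nearest patterns of the 3 members with the widest range. Others are named where a sentence gives the reason. The markers of other cell types were stromal, haematopoietic and endothelial genes. 1 gene of the listed pathway is not reported here and was left out of its list.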

Additional observations from a re-analysis of the deposited data

How the results depend on the processing

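Of 117 log2 fold changes of the 9 genes under alternatives, 102 kept their direction and their side of the threshold and 9 passed the threshold that the value over all 6 libraries had missed. These 9 belong to Irf7 (without the filter, without Ctl MSC 1, without both libraries numbered 1 and by DESeq2), Stat2 and Irf9 (without both libraries numbered 1 and by DESeq2) and Ifnar1 (without both libraries numbered 1). The other 6 changed sign, which were Irf1 without both libraries numbered 1 (0.13) and Ifnar2 without the filter (0.0090), by DESeq2 (0.0079) and in 3 fits that left out a library each, over which Ifnar2 ranged from −0.13 to 0.073.

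The number of the 9 genes called was 0 over all 6 libraries, 1 without the filter, 3 by DESeq2, 4 without both libraries numbered 1 and 0 to 1 when each library was left out in turn. Among all genes, 0.401% were called lower and 0.0251% higher over all 6 libraries, and 3.39% and 1.89% by DESeq2. Without both libraries numbered 1 these shares were 19.4% and 20.6%. The numbers of all genes called higher and lower were 3 and 48 over all 6 libraries and 3 and 62 without the filter. They were 2498 and 2356 without both libraries numbered 1, and 244 and 439 by DESeq2, while a minimum of 10 counts in every library left 29 lower. With each library left out in turn they were 0 to 11 higher and 0 to 105 lower. Other pathway genes called numbered 4, then 8 without the filter, 36 without both libraries numbered 1, 28 by DESeq2 and 0 to 10 with each library left out. The rise of these counts and of those of the 9 genes came with a rise over all genes. It is not read as a result about the listed genes. The common dispersion (edgeR) was 0.124 over all 6 libraries and 0.0168 without both libraries numbered 1. RLE and upper quartile scaling, and dropping the minimum log2 fold change, moved none of these counts by more than 1.5 times. The number of members without overlap was 5 under RLE and upper quartile scaling and 7 without both libraries numbered 1, where Ifnar2 and Tyk2 also stood apart. With fewer libraries per label, groups stand apart more easily by chance, and the share over all genes was not computed there. The count of 7 is therefore not read as a result about the 9 genes. In the order of levels per kilobase over all libraries, 9 of 9 kept their place without both libraries numbered 1 and 6 of 9 with the longest transcript as the length, where Irf1 moved above Ifnar2 and Stat2.

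The libraries numbered alike were not paired by the labels, and their deviations from the means of their labels had correlations across genes of −0.765, −0.594 and −0.604. With the replicate block, 0 genes were called higher or lower over all genes tested, 0 of the 9 and 0 other pathway genes (edgeR), while 776 of all genes had an unadjusted p under 0.05. In that fit Irf7, Stat2 and Irf9 had log2 fold changes of −2.74, −1.55 and −1.30. Irf7 had 29 to 37 reads in the libraries labelled MSC-TPr, which limits the precision of its level there.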

Other observations

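Irf4, a factor of lymphoid cells and macrophages that was chosen after its values were seen, was too low for the filter over all 6 libraries. It had 2, 1 and 1 reads in the libraries labelled Ctl MSC 1, 2 and 3 and 3, 27 and 32 reads in those labelled MSC-TPr 1, 2 and 3, so that MSC-TPr 1 stayed at the level of Ctl MSC. The last 2 correspond to 1.60 and 1.48 CPM. DESeq2 gave an adjusted p of 0.0280 over all 6 libraries.

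Socs2 and Jak2, also chosen after their values were seen, gave other values with and without both libraries numbered 1. Socs2, a feedback inhibitor of growth hormone signalling, had 17.0, 53.6 and 55.8 CPM (Ctl MSC 1, 2 and 3) against 86.0, 106 and 82.0 CPM (MSC-TPr 1, 2 and 3), without overlap (log2 fold change 1.12, SE 0.434, adjusted p from edgeR 0.302), and without both libraries numbered 1 it was called higher (0.79, adjusted p from edgeR 0.0091). Jak2, the kinase on Ifngr2, had 54.3, 123 and 128 CPM against 129, 70.9 and 83.1 CPM, low where the cell division genes were high, and differed by −0.11 on the log2 scale (SE 0.381, adjusted p from edgeR 0.918). Without both libraries numbered 1, Jak2 was called lower (−0.70, adjusted p from edgeR 0.0068). The part of cell division in the values of Jak2 was not tested.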
